A study of Mus musculus with 10 samples.

Results

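The 10 genes Ugt1a1, Ugt2a3, Ugt2b1, Ugt2b5, Ugt2b34, Ugt2b35, Ugt2b36, Ugt2b38, Ugt3a1 and Ugt3a2 encode UDP-glycosyltransferases (UGT) of the liver. They were taken by name from a list drawn up with earlier results of these data known, and all 10 were found among the 41388 genes in the tables by their Ensembl identifiers. RNA-seq of liver from 10 mice, all 10 weeks old, was made to compare both directions of a cross between BFMI860-12/Hber (BFMI), an obese inbred line of the Berlin Fat Mouse, and the strain C57BL/6NCrl (B6N). The matBFMI group held 3 F1 males of a BFMI mother and a B6N father, and the patBFMI group held 3 F1 males of a B6N mother and a BFMI father. Both F1 groups received a high fat diet after weaning at 21 days until they were killed at 70 days. Each parental strain gave 1 female and 1 male. On the diet of these inbred animals the sources differ, since the series description names a high fat diet and the sample records a standard breeding diet. BFMI is 1 inbred line with a recessive obesity mutation, so BFMI against B6N compares whole genomes and not a single allele.

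Each matBFMI library held 51596405 to 56457087 reads assigned to genes, and each patBFMI library 51080161 to 58955349. The inbred libraries held 50979788 (BFMI female), 96023811 (BFMI male), 46988713 (B6N female) and 55008330 (B6N male) reads. The patBFMI 1 library stood apart with 32421 genes that had a read, against 22095 to 26694 in the other 5 F1 libraries. All matBFMI libraries came from lane 6 and all patBFMI libraries from lane 5, and a lane effect and a cross effect therefore cannot be told apart. The BFMI male came from lane 1 and the other 3 inbred libraries from lane 4. The 5 hepatocyte markers, among them Alb and Apoa1, summed to 56827 to 83841 CPM (counts scaled to the library size, with TMM factors), and the 4 kidney markers to at most 0.712 CPM. Each of the 10 UGT genes had at least 2014 reads in every library. In bulk liver, fewer cells of a type and less RNA per cell cannot be told apart.

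UGT enzymes sit in the endoplasmic reticulum and transfer a sugar from a UDP-sugar to small lipophilic molecules. UGT1 and UGT2 enzymes use mainly UDP-glucuronate, and the glucuronides they form are water soluble and leave the cell for bile or blood. Bilirubin, steroid hormones, bile acids and many drugs are cleared in this way, and the liver is the main site. UGT3 enzymes use other UDP-sugars; in humans UGT3A1 transfers N-acetylglucosamine and UGT3A2 transfers glucose and xylose.

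On GRCm38 (GENCODE M21) the 7 genes of the UGT2 family lie in a cluster on chromosome 5, from Ugt2b34 (chr5:86889767-86906937, minus strand) to Ugt2b38 (chr5:87409942-87424203, minus strand). Between them lie Ugt2b1 (chr5:86916638-86926530), Ugt2b35 (chr5:87000860-87013275), Ugt2b36 (chr5:87065927-87092555), Ugt2b5 (chr5:87124960-87140318) and Ugt2a3 (chr5:87324972-87337195), all on the minus strand except Ugt2b35. Ugt3a1 (chr15:9276888-9315032) and Ugt3a2 (chr15:9335550-9370955) are neighbours on the plus strand. Ugt1a1 (chr1:88211959-88218997, plus strand) belongs to a locus where each UGT1A gene has its own first exon and all share the last exons.

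Most of these genes shared a short sequence upstream of their RefSeq start. RefSeq (GRCm38.p6) gave a promoter of 250 bases before to 50 bases after the start for 9 of the 10 genes, and Ugt3a2 had no entry. Among gapped patterns of 13 letters the one held by the most of these promoters was GTTANNNNTTAAC, in 7 of the 9, and the next was held by 4. The shape of the pattern was chosen after these promoters had been read. Searched on both strands, it was held by 60 of all 27025 genes with a promoter in that table, or 0.222%. A match is a description of letters, and binding was not measured here. The 42 bases around the motif are shown to give the motif of the UGT2B genes and Ugt3a1 in its place; capitals mark the motif, and each is written 5′ to 3′ on the strand of its gene.
Ugt2b1: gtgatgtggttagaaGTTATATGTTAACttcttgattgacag
Ugt2b5: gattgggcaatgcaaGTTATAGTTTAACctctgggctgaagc
Ugt2b34: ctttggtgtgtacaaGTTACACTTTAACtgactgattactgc
Ugt2b35: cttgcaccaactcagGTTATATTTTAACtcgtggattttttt
Ugt2b36: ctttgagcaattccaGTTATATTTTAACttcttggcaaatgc
Ugt2b38: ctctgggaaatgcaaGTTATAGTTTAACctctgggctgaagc
Ugt3a1: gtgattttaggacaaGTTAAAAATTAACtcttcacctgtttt

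These windows lie at chr5:86926566-86926607 (Ugt2b1), chr5:87140375-87140416 (Ugt2b5), chr5:86906984-86907025 (Ugt2b34), chr5:87000775-87000816 (Ugt2b35), chr5:87092593-87092634 (Ugt2b36), chr5:87424241-87424282 (Ugt2b38) and chr15:9279684-9279725 (Ugt3a1) on GRCm38.p6. The motif began 61 to 89 bases before the start in the 6 UGT2B genes and 130 bases before it in Ugt3a1. The RefSeq start of Ugt3a1 (position 9279829) lies 2941 bases inside the gene as GENCODE gives it above, so that its window is upstream of the RefSeq start only; in the other 8 genes both starts were at most 27 bases apart. The windows of Ugt2b38 and Ugt2b5 differed at 4 of 42 bases, whereas those of Ugt2b36 and Ugt3a1 differed at 24 of 42. Of all 20 UGT genes with a promoter in the table, 8 held the motif, the eighth being Ugt2b37. Its letters were not found in the promoters of Ugt1a1 and Ugt2a3.

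**Figure D1:**
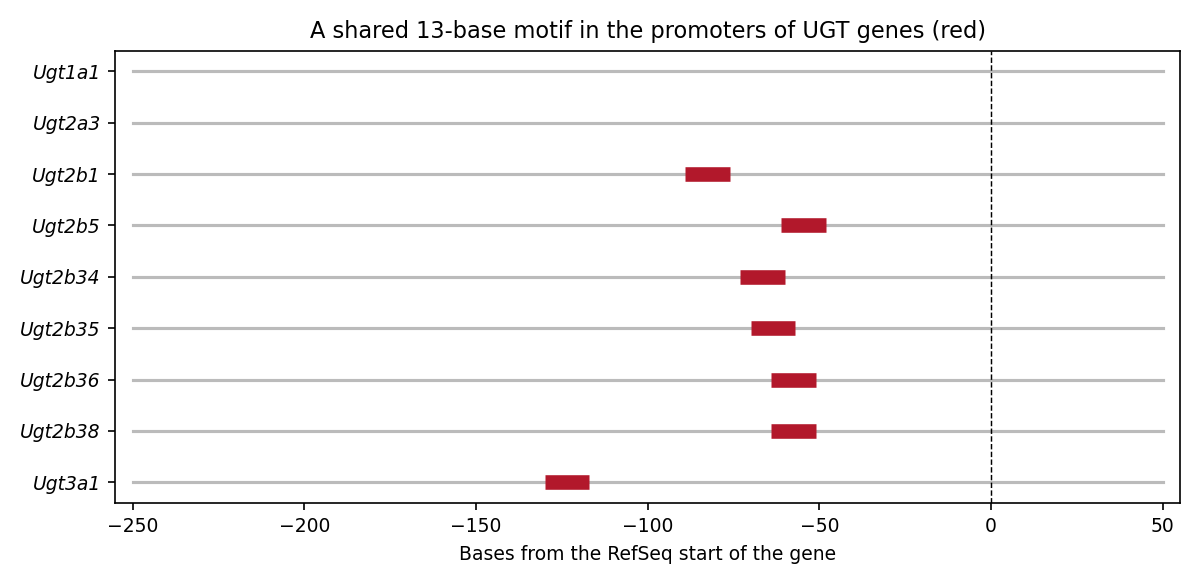
Promoters of the 9 genes with a RefSeq entry (grey lines, 250 bases before to 50 bases after the start at 0), in bases from the start, with the 13-letter motif as a red bar. The bar lies 61 to 89 bases before the start in the 6 UGT2B genes and 130 bases before it in Ugt3a1, and Ugt1a1 and Ugt2a3 have none.

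The near-identical sequences of some of these genes limit how far their reads can be told apart. The transcripts of Ugt2b5 and Ugt2b38 were 95.5% identical over 1861 aligned bases with an identical stretch of 444 bases, so that their values are uncertain as separate genes. Ugt3a1 and Ugt3a2 were 91.7% identical with identical stretches of up to 90 bases, and Ugt2b35 was 87.7% identical to Ugt2b36 with stretches of up to 49 bases. Of the 2224 exon bases of Ugt1a1, 385 belong to no other annotated gene. It shares exons with the other UGT1A genes, and Gm20528 is annotated over it on the opposite strand. A read that overlaps several genes is assigned to none of them in union mode, while the gene length in the deposited RPKM (reads scaled by gene length and library size) was about 2235 bases for Ugt1a1, shared exons included.

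Ugt2b1, Ugt2b5 and Ugt2b36 were the most abundant of the 10 per gene length (plot of deposited RPKM by library). Over the 6 F1 males Ugt2b1 averaged 429 ± 79.1 RPKM (SD, n = 6), Ugt2b5 411 ± 38.0 and Ugt2b36 302 ± 22.9 RPKM. The ranges of Ugt2b1 and Ugt2b5 overlapped, and those of Ugt2b5 (348 to 462 RPKM) and Ugt2b36 (261 to 325 RPKM) did not. Ugt2a3 at 145 ± 8.28 RPKM, Ugt3a2 at 117 ± 7.73 RPKM and Ugt2b34 at 97.8 ± 8.48 RPKM formed a series in which the range of each gene overlapped with that of its neighbour. Ugt2b38 (66.8 ± 9.44 RPKM) and Ugt2b35 (66.0 ± 3.91 RPKM) also overlapped. The RPKM of Ugt2b35 rest on a length of about 1777 bases, against 3359 exon bases in the annotation used here, so that its place in this order depends on the length taken. Ugt3a1 (33.7 ± 2.10 RPKM) and Ugt1a1 (19.5 ± 1.94 RPKM) were at the low end without overlap, and the value of Ugt1a1 is divided by exons whose reads were not assigned to it.

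**Figure D2:**
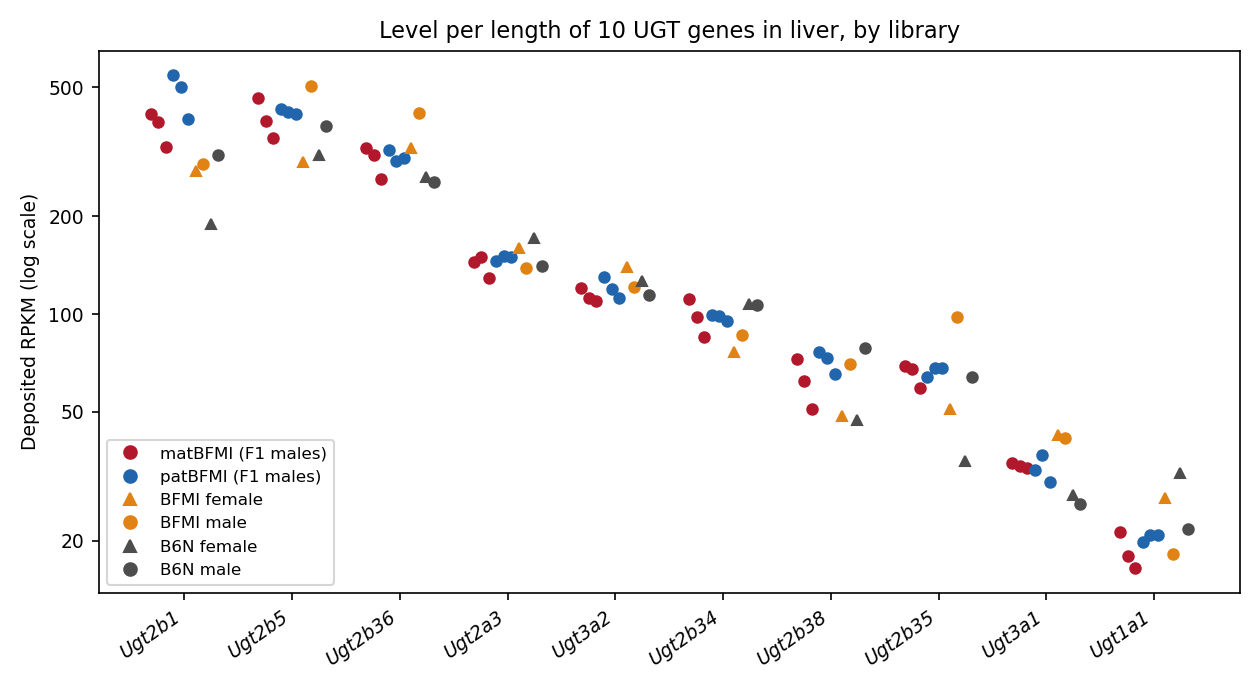
Deposited RPKM (log scale) of the 10 UGT genes in each library, ordered by the mean of the 6 F1 males; circles are males and triangles females. Ugt2b1, Ugt2b5 and Ugt2b36 lie between 190 and 544 RPKM in all 10 libraries, and Ugt1a1 lies between 16.4 and 32.4 RPKM.

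Together the 10 genes took 0.368% to 0.434% of all assigned reads in matBFMI, 0.387% to 0.428% in patBFMI, 0.356% and 0.411% in the BFMI female and male, and 0.316% and 0.352% in the B6N female and male. Ugt2b1, Ugt2b5 and Ugt2b36 made up 61.5% to 65.3% of these reads in the F1 males and 52.3% to 62.6% in the inbred animals. The genes differed in how much they varied over the 10 libraries. Ugt2b1 and Ugt2b35 spanned a 2.97-fold and a 2.90-fold range of CPM, and Ugt2a3 and Ugt3a2 spanned 1.29-fold and 1.28-fold ranges.

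Whether the direction of cross changed these genes in F1 males was tested with edgeR, with p adjusted by Benjamini-Hochberg over the 16797 genes tested. None of the 10 UGT genes passed an adjusted p of 0.05, at a background of 0.143% of all genes tested, and 0 of them had an unadjusted p under 0.05, as 9.85% of all genes had. DESeq2 also called 0 of the 10, at a background of 1.82%. Their log2 fold changes lay between -0.28 and 0.06, with a median of -0.06 against -0.01 over all genes tested. Of the 10 values 2 were positive, as were 48.9% over all genes. That number depends on the scaling, since Ugt2a3, Ugt2b35, Ugt2b36 and Ugt3a2 also turned positive with library size only, without TMM factors. In every one of the 10 genes the matBFMI and the patBFMI libraries overlapped, whereas the groups did not overlap for 15.3% of all genes tested.

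Ugt2b1, whose rat counterpart conjugates bisphenol A, had the smallest p of the 10 in this comparison. It was at 1155, 1030 and 923 CPM in matBFMI 1, 2 and 3 and at 1282, 1408 and 1044 CPM in patBFMI 1, 2 and 3. Only matBFMI 1 lay inside the range of the patBFMI libraries, above patBFMI 3. The log2 fold change was -0.28 (standard error, SE, 0.134), which did not pass in edgeR (adjusted p = 0.548). The 7 male-biased liver genes, among them Mup20 and Cyp7b1, summed to 3010 to 3808 CPM in matBFMI and to 3948 to 5067 CPM in patBFMI without overlap. The 7 female-biased liver genes (32.4 to 37.1 CPM in matBFMI, 21.1 to 29.8 CPM in patBFMI), the 6 Kupffer cell markers (143 to 165 CPM in matBFMI, 183 to 189 CPM in patBFMI) and the 5 gut and pancreas markers (156 to 163 CPM in matBFMI, 90.8 to 144 CPM in patBFMI) did not overlap either. In the last list, the pancreas markers Cela2a, Prss2 and Pnlip overlapped, with sums of 0.0347 to 0.170 CPM in matBFMI and 0.107 to 0.295 CPM in patBFMI. Nearly all of that list's sum thus came from its gut markers Vil1 and Fabp2. The hepatocyte, endothelial, cholangiocyte and kidney markers overlapped between the crosses. So did the single gene Slco1a1 of the male-biased list, at 944 to 1148 CPM in matBFMI and 1074 to 1203 CPM in patBFMI. The part of any of these sums in the value of Ugt2b1 was not tested.

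Ugt2b38 was at 143, 120 and 99.8 CPM in matBFMI and at 142, 148 and 122 CPM in patBFMI, a log2 fold change of -0.20 (SE 0.146, adjusted p = 0.710 in edgeR) that was -0.33 without matBFMI 1 and -0.07 without matBFMI 3. Ugt2b35 had 127, 121 and 107 CPM in matBFMI and 108, 127 and 118 CPM in patBFMI. Its log2 fold change was -0.0037 (SE 0.104). Ugt1a1, the enzyme that conjugates bilirubin, was at 48.4, 40.6 and 38.1 CPM in matBFMI and at 41.5, 49.1 and 46.0 CPM in patBFMI, a log2 fold change of -0.12 (SE 0.112) that was -0.22 without matBFMI 1 and -0.04 without matBFMI 3. With standard errors of 0.102 to 0.146 for the 10 genes, log2 differences several times the size of these errors could also be missed at this number of animals. In the same test the transporter gene Slco1a4, at 0.64 (SE 0.137), did not pass (adjusted p = 0.155 in edgeR).

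**Figure D3:**
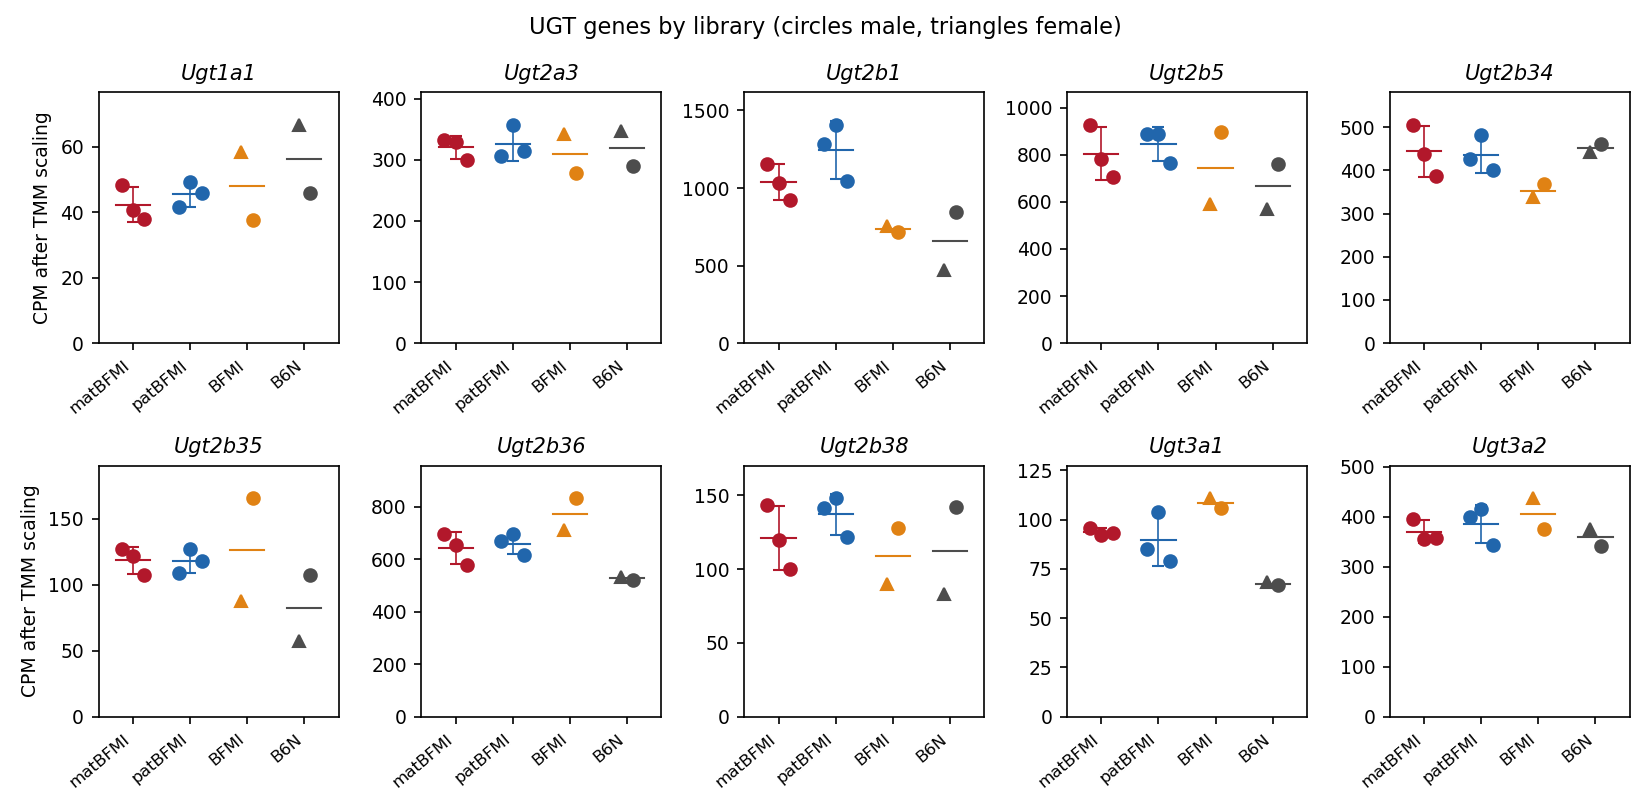
CPM after TMM scaling of each UGT gene by group; circles are males, triangles females, horizontal lines group means, and bars the SD of the 3 libraries of each F1 group. The matBFMI and patBFMI libraries overlap in all 10 panels, and the BFMI libraries lie above the B6N libraries for Ugt2b36 and Ugt3a1.

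BFMI and B6N differed in 3 of the 10 genes, all higher in BFMI: Ugt3a1, Ugt2b35 and Ugt2b36. At an adjusted p of 0.05 in edgeR, 6.67% of all 19974 genes tested were called, and 3.61% of all genes tested were called higher in BFMI. The median log2 fold change of the 10 genes was 0.16, against -0.04 over all genes tested, and 6 of the 10 were positive, as were 45.4% over all genes. DESeq2 called 8.37% of all genes and included these 3. Reads of both strains were aligned to GRCm38, whose alleles the paper treats as those of B6. A part of BFMI sequence variants in the assignment of reads was not tested.

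Ugt3a1 had the smallest p of the 10 in this comparison. It was at 111 CPM in the BFMI female and 106 CPM in the BFMI male, and at 68.2 CPM in the B6N female and 66.6 CPM in the B6N male. Within each strain the sexes were close, and both BFMI libraries lay above both B6N libraries. The log2 fold change was 0.68 (SE 0.140, adjusted p = 0.0162 in edgeR), a 1.61-fold higher level in BFMI. Between the females, which shared lane 4, it was 0.70, and between the males 0.67. Its neighbour Ugt3a2, 91.7% identical in sequence, was at 437 and 375 CPM in the BFMI female and male and at 376 and 342 CPM in the B6N female and male, a log2 fold change of 0.17 (SE 0.139, adjusted p = 0.623 in edgeR).

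Ugt2b35 was at 87.4 CPM in the BFMI female and 165 CPM in the BFMI male, and at 57.0 CPM in the B6N female and 107 CPM in the B6N male. In each sex the BFMI library was higher, and the strains overlapped only across the sexes. The log2 fold change was 0.62 (SE 0.131, adjusted p = 0.0189 in edgeR), with 0.62 between the females on lane 4 and 0.63 between the males.

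Ugt2b36 was at 710 CPM in the BFMI female and 832 CPM in the BFMI male, and at 534 CPM in the B6N female and 522 CPM in the B6N male. Both BFMI libraries were higher than both B6N libraries, and the log2 fold change was 0.54 (SE 0.142). The adjusted p of 0.0487 in edgeR was just inside the threshold and became 0.0517 with DESeq2 size factors in edgeR and 0.192 in the 4 inbred libraries alone. In limma the adjusted p was 0.158 on log2(RPKM + 1) and 0.175 on log2(RPKM + 0.1). Between the females on lane 4 the log2 ratio was 0.41, and between the males 0.67.

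The calls of all 3 genes ended without any 1 of the 4 inbred libraries, with adjusted p of 0.119 to 0.138 for Ugt3a1, 0.121 to 0.157 for Ugt2b35 and 0.0993 to 0.353 for Ugt2b36, while the log2 fold changes stayed between 0.41 and 0.73. The call of Ugt2b36 also ended without matBFMI 1, matBFMI 2, patBFMI 1 or patBFMI 3 (adjusted p = 0.0567 to 0.0949). The 6 Kupffer cell markers summed to 226 and 162 CPM in the BFMI female and male and to 316 and 298 CPM in the B6N female and male. The pancreas markers Cela2a, Prss2 and Pnlip summed to 0.175 and 0.129 CPM in BFMI and to 43.1 and 8.25 CPM in B6N. The part of either in the strain differences was not tested, and in 8 of the 10 libraries the sum of the pancreas markers was at most 0.295 CPM.

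The other 7 genes did not pass between the strains. Ugt2b34 was at 337 and 369 CPM in the BFMI female and male and at 443 and 460 CPM in the B6N female and male, without overlap. Its log2 fold change of -0.35 (SE 0.157) had an unadjusted p of 0.0474 from edgeR and an adjusted p of 0.264. Ugt2b34 and Ugt2b36 lie in the same cluster and had opposite signs. The BFMI and B6N libraries did not overlap for Ugt2b34, Ugt2b36 and Ugt3a1 among the 10 genes, and for 43.8% of all genes tested.

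**Figure D4:**
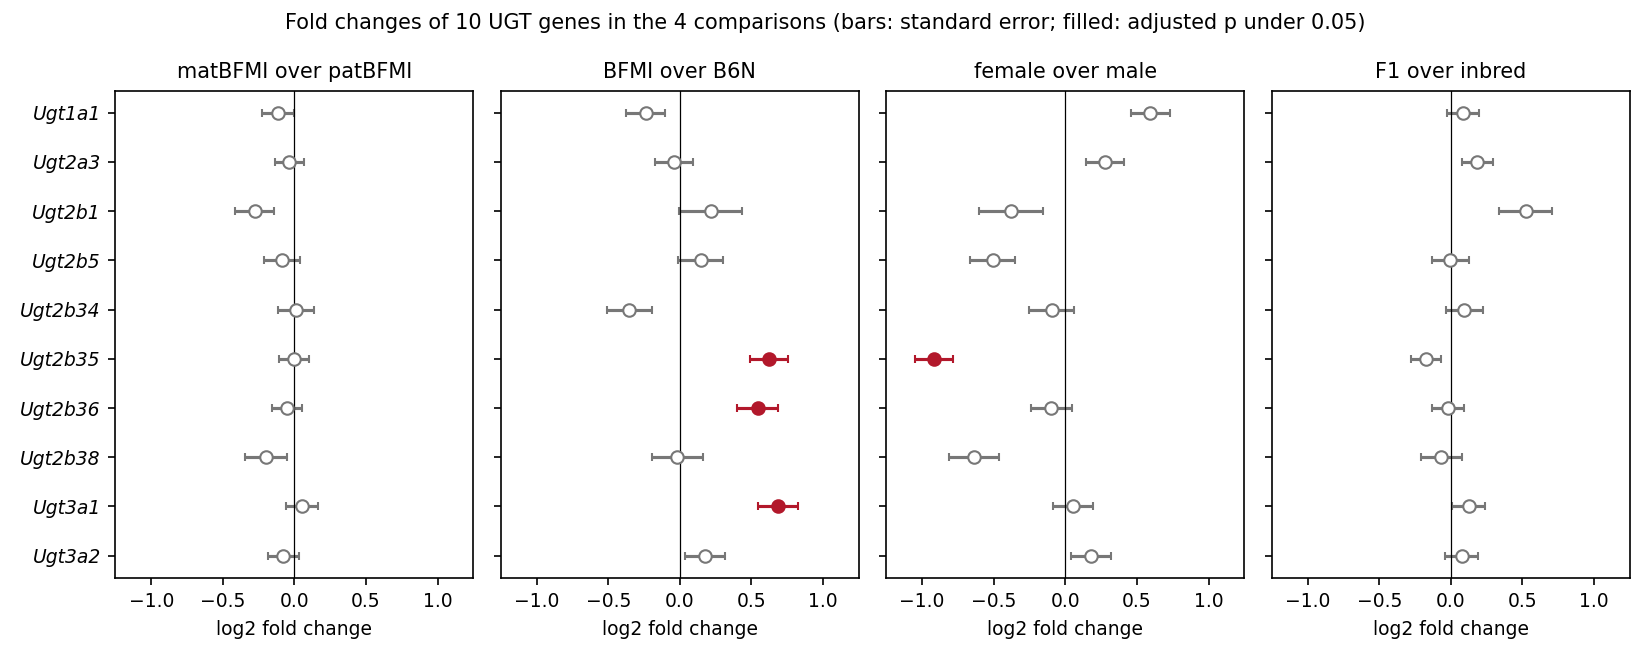
Log2 fold changes of the 10 UGT genes in the comparisons of cross, strain, sex and F1 against inbred animals, with standard errors from edgeR; filled red points have an adjusted p under 0.05. The filled points are Ugt2b35, Ugt2b36 and Ugt3a1 for BFMI over B6N (0.54 to 0.68) and Ugt2b35 for female over male (-0.92).

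Between the sexes, which only the inbred animals held, Ugt2b35 was the gene that passed. At an adjusted p of 0.05 in edgeR, 0.556% of all 19974 genes tested were called, and 0.245% of all genes tested were called lower in females. Of the 10 genes 4 had a positive log2 fold change, as had 54.7% of all genes, with a median of -0.10 against 0.03 over all genes tested. As a check of the labels, the 7 female-biased liver genes, among them Cyp2b9 and A1bg, summed to 1827 and 1064 CPM in the BFMI and the B6N female. The sum was 141 CPM in the BFMI male, 14.6 CPM in the B6N male and 21.1 to 37.1 CPM in the F1 males, so that the BFMI male stood above the other males in these genes. The 7 male-biased genes summed to 1299 and 807 CPM in the BFMI and B6N females and to 2594 and 8730 CPM in the BFMI and B6N males. The hepatocyte markers summed to 81388 to 83841 CPM in the females and to 56827 to 69922 CPM in all 8 males, and the part of either in the sex differences was not tested.

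Ugt2b35 had 87.4 CPM in the BFMI female and 57.0 CPM in the B6N female, against 165 CPM in the BFMI male and 107 CPM in the B6N male. Both females lay below all 8 male libraries, the F1 males included. The log2 fold change of females over males was -0.92 (SE 0.132, adjusted p = 0.0160 in edgeR), which is a 1.89-fold higher level in males. It was -0.92 in BFMI and -0.91 in B6N, where both animals shared lane 4. This gene thus passed both between the strains and between the sexes. The sex difference in BFMI departed from that in B6N by -0.01 (SE 0.266). With 1 animal for each strain and sex, that does not show that the sex differences were equal. Without any 1 of the 4 inbred libraries the sex call ended (adjusted p = 0.0886 to 0.181), at log2 fold changes of -0.91 to -0.93.

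Ugt1a1, Ugt2b38 and Ugt2b5 had unadjusted p under 0.05, as had 7.8% of all genes, and did not pass in edgeR. Ugt1a1 was at 58.5 and 66.7 CPM in the BFMI and B6N females and at 37.5 and 45.8 CPM in the BFMI and B6N males, with both females above all 8 male libraries. Its log2 fold change of females over males was 0.59 (SE 0.136, adjusted p = 0.120 in edgeR and 0.00757 in DESeq2). Ugt2b38 was at 90.2 and 83.1 CPM in the females and at 128 and 142 CPM in the males of BFMI and B6N, a log2 fold change of -0.64 (SE 0.177, adjusted p = 0.220 in edgeR and 0.0192 in DESeq2).

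Ugt2b5 was at 591 and 570 CPM in the BFMI and B6N females and at 897 and 760 CPM in the BFMI and B6N males. The log2 fold change of females over males was -0.51 (SE 0.157, adjusted p = 0.305 in edgeR and 0.0447 in DESeq2). In both genes the females lay below all 8 males, and reads of Ugt2b5 and Ugt2b38 may be shared between them. DESeq2 called 4 of the 10 genes between the sexes, at a background of 1.92% of all genes. Both females were outside the range of all 8 males in Ugt1a1, Ugt2b5, Ugt2b35 and Ugt2b38, and in 7.62% of all genes.

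The sexes stood further apart in B6N than in BFMI for Ugt2b1, a difference that did not pass its test. It was at 756 CPM in the BFMI female and 717 CPM in the BFMI male, and at 474 CPM in the B6N female and 847 CPM in the B6N male. The B6N female was thus the lowest library for this gene, and the sexes of BFMI were close. The sex difference in BFMI over that in B6N was 0.91 on the log2 scale (SE 0.336), with an unadjusted p of 0.0242 from edgeR, and an adjusted p of 0.559. None of the 10 genes passed in this test of the difference, which called 6 of 19974 genes, or 0.03%.

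**Figure D5:**
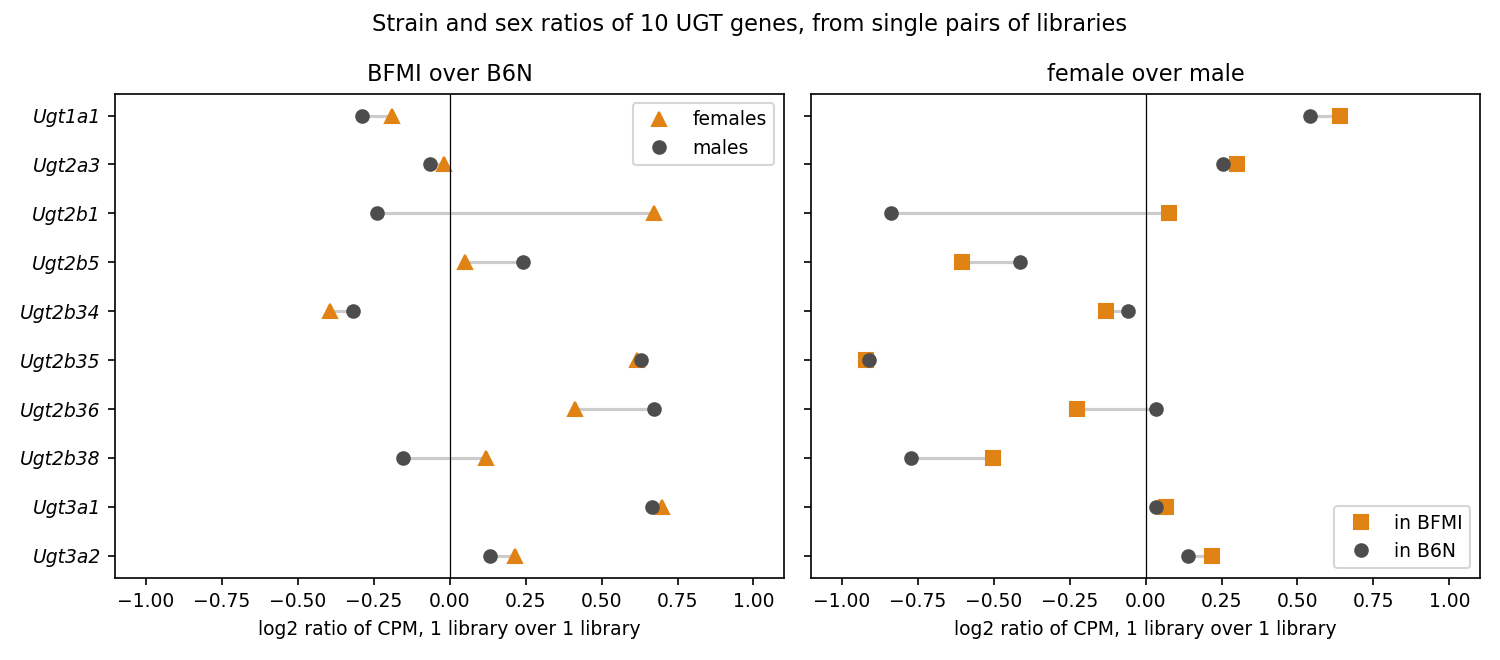
Log2 ratios of CPM between single libraries for BFMI over B6N (triangles females, circles males) and for female over male (squares in BFMI, circles in B6N). The points of Ugt2b35 and Ugt3a1 nearly coincide in the left panel, and Ugt2b1 lies at 0.67 in females and -0.24 in males.

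The F1 males were set against the mean of the inbred animals with sex in the model, a comparison in which diet and cross cannot be told apart because the sources differ on the diet of the inbred animals. All F1 libraries came from lanes 5 and 6 and all inbred libraries from lanes 1 and 4, so that lane cannot be told apart either. Apart from patBFMI 1, the F1 libraries also had fewer genes with a read (22095 to 26694) than the inbred libraries (29942 to 34572). The part of that difference in this comparison was not tested. None of the 10 genes passed, at a background of 2.05% of all genes in edgeR, and 1 of them, Ugt2b1, had an unadjusted p under 0.05, as had 16.6% of all genes. DESeq2 called 0 of the 10 and 4.36% of all genes. The median log2 fold change of the 10 genes was 0.08, against 0.01 over all genes tested, and 6 of the 10 were positive, as were 50.8% over all genes.

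Ugt2b1 had the smallest p of the 10 in this comparison. It was at 923 to 1408 CPM in the 6 F1 males (median of matBFMI 1030 and of patBFMI 1282 CPM), against 474 to 847 CPM in the 4 inbred libraries. All F1 libraries lay above all inbred libraries, which held for 3.11% of all genes tested. The log2 fold change was 0.52 (SE 0.185, adjusted p = 0.191 in edgeR), and it was 0.06 without the BFMI male and 1.00 without the B6N male. For Ugt2b35, Ugt2b36 and Ugt3a1 all 6 F1 males lay between the BFMI male and the B6N male, as was the case for 8.23% of all genes tested. They were also the members called between the strains, in a fit that held the F1 males. A wide gap between the parental males makes such a position more likely, so the share over all genes is not a like measure. The F1 values were 107 to 127 CPM for Ugt2b35, 577 to 694 CPM for Ugt2b36 and 78.9 to 104 CPM for Ugt3a1.

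Among the other UGT genes, Ugt1a9, whose human counterpart conjugates phenols, had the clearest strain difference. It was at 56.5 and 56.0 CPM in the BFMI female and male and at 16.6 and 9.26 CPM in the B6N female and male. Both BFMI libraries were far above both B6N libraries, with a log2 fold change of 2.18 (SE 0.260, adjusted p = 0.000707 in edgeR). The 6 F1 males were at 18.2 to 30.4 CPM, between the strains. Of the 11 other UGT genes tested this was the gene called between the strains, where 6.67% of all genes were called, and their median log2 fold change was 0.05. Ugt1a6b, at 49.3 and 55.5 CPM in BFMI and 36.7 and 44.3 CPM in B6N, had an adjusted p of 0.0631 in edgeR.

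None of the other UGT genes passed between the crosses (8 tested), between the sexes or between F1 and inbred animals (11 tested each). Ugt1a5 had the smallest p of the other UGT genes in both of the first comparisons. It was at 50.5, 70.3 and 108 CPM in matBFMI and at 30.6, 55.5 and 45.0 CPM in patBFMI, a log2 fold change of 0.80 (SE 0.279, adjusted p = 0.399 in edgeR). In females over males it was 1.21 (SE 0.341, adjusted p = 0.234 in edgeR), with 65.9 and 106 CPM in the BFMI and B6N females and 33.9 and 38.7 CPM in the BFMI and B6N males. Of all reads assigned to the UGT1A genes, Ugt1a1 took 15.9% to 23.7% in matBFMI and 24.3% to 25.2% in patBFMI, and 19.7% to 31.6% in the inbred animals. These shares are of reads and are not scaled by length. Exon bases that lie in no other gene on either strand numbered 385 for Ugt1a1 and 809 to 2142 for the other UGT1A genes. The shares therefore do not rank the levels of the UGT1A transcripts.

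The sugar donor comes from UDP-glucose, which Ugdh oxidises to UDP-glucuronate. A list of 8 genes of this supply, which also held the glucuronide hydrolases Gusb and Abhd10, was tested. Of these, Ugdh was the gene that passed between the strains, at the background of 6.67% of all genes. It was at 80.2 and 133 CPM in the BFMI female and male and at 59.8 and 62.9 CPM in the B6N female and male, a log2 fold change of 0.75 (SE 0.176, adjusted p = 0.0306 in edgeR). This call ended at log2 fold changes of 0.45 without the BFMI male and 0.42 without the B6N male (adjusted p = 0.339 and 0.391 in edgeR) and in limma on log2(RPKM + 1) (adjusted p = 0.109). Without either female the log2 fold change was 1.08. The median of the 8 genes was 0.21, against -0.04 over all genes tested. Between the crosses, the sexes, and F1 and inbred animals 0 of the 8 passed.

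Glucuronides leave hepatocytes through ABC transporters and are taken up by organic anion transporters. Between the sexes, 2 of 8 such genes passed, at the background of 0.556% of all genes. Slco1a4, an organic anion carrier of the basolateral membrane, was at 132 and 96.3 CPM in the BFMI and B6N females and at 33.9 and 24.1 CPM in the BFMI and B6N males, a log2 fold change of 1.98 (SE 0.166, adjusted p = 0.000664 in edgeR). Abcg2, an exporter of the bile canaliculus, was at 93.3 and 41.7 CPM in the females and at 170 and 134 CPM in the males of BFMI and B6N, a log2 fold change of -1.27 (SE 0.230, adjusted p = 0.0462 in edgeR). Its call ended without either B6N library, any matBFMI library or patBFMI 3 (adjusted p = 0.0556 to 0.443). In limma on log2(RPKM + 1) it had an adjusted p of 0.0594. None of the 8 passed between the strains, where Abcc3 (0.73) and Abcg2 (0.75) had adjusted p of 0.0758 and 0.0874 in edgeR. Between the crosses Slco1a4 and Abcc3 had log2 fold changes of 0.64 each, which did not pass (adjusted p = 0.155 and 0.257 in edgeR).

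Of 17 genes of transcription factors that regulate UGT genes or sex-biased liver expression, 1 passed between the sexes, at the background of 0.556% of all genes. This was Cux2, a repressor of male-biased genes that is known from female liver, at 3.51 and 19.6 CPM in the BFMI and B6N females and at 0.603 and 0.536 CPM in the BFMI and B6N males. Its log2 fold change was 3.81 (SE 0.510, adjusted p = 0.0116 in edgeR), and it did not pass without the B6N female (adjusted p = 0.0894 in edgeR) or in limma on log2(RPKM + 1) (adjusted p = 0.374). Between the strains 0 of the 17 passed. Cux2 had the smallest p (log2 value -1.46 for BFMI over B6N, adjusted p = 0.130 in edgeR), and Nr1i3, the constitutive androstane receptor, was 0.62 higher in BFMI on the log2 scale (adjusted p = 0.167 in edgeR). Between the crosses 0 of the 17 passed, and the log2 value of Stat5b, which carries the growth hormone signal, was -0.41 for matBFMI over patBFMI (SE 0.131, adjusted p = 0.339 in edgeR). Between F1 and inbred animals 0 of the 17 passed.

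Levels of 13153 genes with a mean of at least 1 CPM were compared by the mean absolute difference of centred log2 CPM over the 10 libraries. UGT genes are counted in that number but were left out of the search, so a UGT gene may be nearer. The nearest genes outside the family were taken for each of the most variable UGT genes. For Ugt2b1 these were Slco1a1, an uptake carrier of organic anions, and Slc22a28, of an organic anion carrier family (0.126 each), and Ces3a, a carboxylesterase (0.151). For Ugt2b35 they were Slc35e3 (0.124), Fbxl18 (0.125) and Ephx2, the soluble epoxide hydrolase (0.131). For Ugt2b38 they were Phyh, a peroxisomal enzyme of phytanic acid breakdown (0.087), Ldah (0.093) and Tmem251 (0.093). Slco1a1 was thus within 0.126 of Ugt2b1 on the log2 scale on average, at 944 to 1203 CPM in the F1 males and at 831 and 878 CPM in the BFMI female and male, against 538 and 1012 CPM in the B6N female and male. Slco1a1 also belongs to the male-biased liver genes summed above. All of these values are descriptions over 10 libraries that share strain, sex and lane.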

How the data were processed

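Liver RNA of 10 mice was sequenced, and groups were taken from the sample records. The authors trimmed reads, aligned them to GRCm38 (the paper names BWA, the records TopHat2 2.10 and Bowtie2 2.2.6), removed duplicates, and deposited raw counts per Ensembl gene in union mode. They also deposited RPKM values computed after quantile normalization. In each table there were 3 columns with no sample record, which were not used. Of 41388 genes, 40254 matched GENCODE M21 (GRCm38). How reads with several alignments were treated, and whether counting used strand, is not given in the sources used here; ribosomal RNA removal is named in the protocol, polyA RNA in the molecule field.

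Raw counts were tested with the quasi-likelihood test of edgeR 4.0.16 (R 4.3.3) with TMM scaling and Benjamini-Hochberg adjustment at 0.05. The cross was tested in the 6 F1 males (at least 10 counts in 3 libraries). Strain, sex and F1 against inbred were tested in 1 fit of all 10 libraries with terms for group and sex (at least 10 counts in 2 libraries), where most of the spread comes from the F1 males. Each parental strain and sex had 1 animal, so p-values for strain and sex assume that inbred animals vary like F1 males. The strain by sex term was added after seeing the data. Alternatives covered other scalings, DESeq2 1.42.0, no filter, limma 3.58.1 on log2(RPKM + 1) and log2(RPKM + 0.1), other sets of libraries, leaving out each library and a replicate block. The biological coefficient of variation was 15.9% in the F1 fit and 17.7% in the fit of all libraries. Libraries of a group differed beyond sampling noise. Scripts were tested on simulated data.

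Named are all 10 members and genes of 4 related lists that passed or were among the 3 with the smallest p. For each of the 3 most variable members, the 3 genes nearest in pattern, UGT genes left out, are also named. Members, lists and the motif were chosen with earlier results of these data known. The motif was the gapped pattern of its shape that the most member promoters held. Results of some regulator genes are not reported here. BLAST 2.17.0 gave the identity of transcripts, and Python 3.11.15 with matplotlib 3.10.9, numpy 2.4.6 and pandas 2.3.3 was used for tables and figures.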

Additional observations from a re-analysis of the deposited data

How the results depend on the processing

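In the comparison of the crosses 0 of the 10 UGT genes passed under every alternative. The number of all genes called was 305 in DESeq2, 56 with library size only, 696 with no filter, 12 in the fit of all 10 libraries and 2 in limma with either pseudocount, against 24. With the offspring number as a replicate block it was 175; same-numbered males did not deviate together in every pair (correlations of 0.464, 0.063 and 0.266), so the block serves only as an alternative. Leaving out single libraries gave 7 (without matBFMI 3) to 63 (without patBFMI 2).

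Of BFMI over B6N, 3 UGT genes passed, against 0 in males only and 0 to 3 when single libraries were left out. All genes called numbered 811 in males only, 320 and 364 in limma with pseudocounts of 0.1 and 1, and 536 (without the B6N male) to 1523 without single libraries. Of female over male, 1 UGT gene passed, against 4 in DESeq2 (Ugt1a1, Ugt2b5 and Ugt2b38 added), 2 with no filter (Ugt2b38 added) and 0 to 1 without single libraries. All genes called numbered 384 in DESeq2, 582 with no filter, 419 in the 4 inbred libraries, 34 and 40 in limma, and 38 (without the B6N female) to 156 without single libraries. Of F1 over inbred, 0 passed throughout, and all genes called numbered 871 in DESeq2, 1410 with no filter, 42 and 264 in limma, and 13 (without the BFMI male) to 937 (without patBFMI 1).

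Signs turned only for UGT genes that did not pass. Between the crosses the log2 fold change became 0.045 (Ugt2a3), 0.076 (Ugt2b35), 0.030 (Ugt2b36) and 0.0078 (Ugt3a2) with library size only, 0.0084 and 0.028 for Ugt2b35 in the fit of all 10 libraries and with no filter, and -0.0040 and -0.0039 for Ugt2b34 in limma. Without single libraries it was -0.068 to 0.026 (Ugt2a3), -0.195 to 0.0049 (Ugt2b5), -0.088 to 0.105 (Ugt2b34), -0.053 to 0.066 (Ugt2b35), -0.109 to 0.022 (Ugt2b36) and -0.031 to 0.169 (Ugt3a1). Between the strains it became 0.0062 and 0.071 for Ugt2b38 with library size only and no filter, 0.048 for Ugt2a3 with no filter and -0.238 for Ugt2b1 in males only; without single libraries it was -0.067 to 0.012 (Ugt2a3), -0.243 to 0.702 (Ugt2b1) and -0.156 to 0.147 (Ugt2b38). Between the sexes it became -0.024 for Ugt3a1 with no filter, and without single libraries it was -0.862 to 0.080 (Ugt2b1) and -0.228 to 0.034 (Ugt2b36). For F1 over inbred it became -0.031 and -0.030 (Ugt1a1) and -0.0064 and -0.0063 (Ugt3a2) in limma; without single libraries it was -0.041 to 0.131 (Ugt1a1), -0.029 to 0.122 (Ugt2b34), -0.150 to 0.083 (Ugt2b36), -0.230 to 0.070 (Ugt2b38), -0.129 to 0.064 (Ugt2b5) and -0.019 to 0.117 (Ugt3a2). The cause of these changes was not tested. Strain and sex rest on 2 inbred libraries a side, 1 for each combination of strain and sex.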
